A study of Mus musculus with 8 samples.

Results

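The TNF receptor superfamily was followed in regulatory T (Treg) cells through 10 receptor genes, Tnfrsf4, Tnfrsf9, Tnfrsf18, Tnfrsf1b, Tnfrsf8, Cd27, Tnfrsf1a, Tnfrsf25, Fas and Tnfrsf26. They were taken by gene symbol out of the 27594 genes of the deposited count table. All 10 were among the 14540 genes with enough reads to be tested. CD4+YFP+ cells were sorted from spleen and peripheral lymph nodes (a single tissue label) in C57BL/6 mice aged 6 to 8 weeks. WT cells came from Foxp3-YFP-Cre mice, and Foxp1-deficient cells came from Foxp1fl/fl Foxp3-YFP-Cre mice. In both genotypes a YFP-Cre fusion sits at the Foxp3 locus, so that the loxP-flanked Foxp1 alleles are recombined in cells that express Foxp3, the lineage factor of Treg cells. Each genotype was sorted into resting Treg (rTreg) cells, which are CD44 low, and activated Treg (aTreg) cells, which are CD44 high. RNA sequencing gave 8 libraries, 2 in each of the 4 groups. The sources used here do not say how many mice went into a library, so the errors measure only the spread between these libraries.

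Receptors of this family bind trimeric ligands of the TNF superfamily. One class carries short motifs in its tail that recruit TRAF adaptors, feeds into the NF-kB pathways and costimulates T cells. Another class carries a death domain that can recruit the machinery of programmed cell death. Treg cells are known for high surface levels of several TRAF-binding members, such as GITR (encoded by Tnfrsf18), OX40 (Tnfrsf4) and TNFR2 (Tnfrsf1b). Foxp1 is a forkhead transcription factor that T cells use to keep a quiescent state.

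Library totals ran from 6373170 counts in replicate 1 of Foxp1-deficient rTreg cells to 15268623 in replicate 2 of WT aTreg cells, with a median of 12327710. A level of 3 counts, used as the floor, equals 0.196 to 0.471 CPM (counts scaled to a common library size) and covers counting error only. The targeted gene, Foxp1, was counted over its whole length. WT rTreg libraries had 353 and 384 CPM of Foxp1, Foxp1-deficient rTreg libraries 342 and 338, WT aTreg libraries 234 and 230, and Foxp1-deficient aTreg libraries 126 and 102. Foxp1 was lower in Foxp1-deficient than in WT aTreg cells (log2 fold change -1.03, SE 0.0960, adjusted p = 0.00194), and it did not pass the test in rTreg cells (-0.12, SE 0.0938, adjusted p = 0.460), so that these counts leave the genotype labels of the rTreg libraries unchecked. Cd44, which encodes the sort marker CD44, followed the subset labels. It was higher in aTreg cells by 2.41 (log2, WT) and 2.63 (Foxp1-deficient). The summed level of the Treg markers Cd3e, Cd4, Foxp3, Il2ra, Ctla4 and Ikzf2 was 2788 to 2869 CPM in rTreg libraries and 3523 to 4317 CPM in aTreg libraries. The sum covers markers that went opposite ways (log2, adjusted p under 0.05 unless stated). In Foxp1-deficient against WT rTreg cells Ctla4 (-0.88), Ikzf2 (-0.47) and Foxp3 (-0.32) were lower, and Cd4 (0.54) and Cd3e (0.29) higher. In WT aTreg against rTreg cells Ikzf2 (1.23), Ctla4 (1.13), Cd4 (0.37) and Cd3e (0.27) were higher. Il2ra (-0.38) was lower there, and Foxp3 (-0.081) did not pass the test. Replicate 1 libraries had 0 to 3 counts of Xist and 2143 to 4356 counts over 4 genes of the Y chromosome, and replicate 2 libraries had 15098 to 21822 counts of Xist and 0 on the Y genes. The sex of the mice, the replicate number and any sequencing round therefore cannot be told apart.

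Of the 10 genes, 6 lie on chromosome 4 within 10.8 megabases (GENCODE M21, GRCm38). Tnfrsf1b (chr4:145213463-145246870, minus strand) and Tnfrsf8 (chr4:145267137-145315164, minus strand) are neighbours. So are Tnfrsf4 (chr4:156013843-156016612, plus strand) and Tnfrsf18 (chr4:156026164-156028895, plus strand), with 9551 bases between them. Tnfrsf9 (chr4:150914562-150946102, plus strand) and Tnfrsf25 (chr4:152115934-152120119, plus strand) lie between those pairs. Cd27 (chr6:125232622-125237010, minus strand) and Tnfrsf1a (chr6:125349362-125362484, plus strand) are close on chromosome 6. Fas is at chr19:34290666-34327772 (plus strand), and Tnfrsf26 is at chr7:143607659-143628722 (minus strand). Exons of Tnfrsf18 share 414 bases with Gm16008 on the opposite strand (18 to 57 counts per library), and exons of Tnfrsf26 share 107 bases with E230032D23Rik on the opposite strand (8 to 28 counts). Exons of Cd27 share 129 bases with the microRNA gene Mir8113 on the same strand. Whether reads were counted by strand is not given in the sources used here.

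Promoter sequences from RefSeq (GRCm38.p6) covered 9 of the 10 genes in 11 windows, each from 250 bases before to 50 bases after an annotated start. The windows of the 4 receptors that rose in aTreg cells are shown, with that of Fas, which had lower values in aTreg cells and holds the same motif as Tnfrsf9 and Tnfrsf8. Both strands were searched for GGGANTTTC (an NF-kB site), TGTTTAC (a forkhead site) and TGANTCA (an AP-1 site, which reads alike on both strands). The kappaB consensus, a wider form of the NF-kB site, was searched as well, a choice made after the data were seen. Capitals mark matches to AP-1 or to the kappaB consensus.
Tnfrsf4 (chr4:156013445-156013744, plus strand): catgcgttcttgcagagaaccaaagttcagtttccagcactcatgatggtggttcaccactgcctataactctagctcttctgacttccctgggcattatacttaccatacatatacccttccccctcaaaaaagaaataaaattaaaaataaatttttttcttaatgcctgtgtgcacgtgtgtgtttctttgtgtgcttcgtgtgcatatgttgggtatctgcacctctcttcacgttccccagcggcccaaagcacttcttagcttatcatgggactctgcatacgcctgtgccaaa
Tnfrsf9, first start (chr4:150919905-150920204, plus strand): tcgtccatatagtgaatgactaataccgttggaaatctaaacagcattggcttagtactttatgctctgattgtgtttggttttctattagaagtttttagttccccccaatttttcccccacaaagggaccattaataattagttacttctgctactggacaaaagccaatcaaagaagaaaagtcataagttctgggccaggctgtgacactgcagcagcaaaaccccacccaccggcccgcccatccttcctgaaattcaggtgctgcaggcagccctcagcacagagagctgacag
Tnfrsf9, second start (chr4:150927749-150928048, plus strand): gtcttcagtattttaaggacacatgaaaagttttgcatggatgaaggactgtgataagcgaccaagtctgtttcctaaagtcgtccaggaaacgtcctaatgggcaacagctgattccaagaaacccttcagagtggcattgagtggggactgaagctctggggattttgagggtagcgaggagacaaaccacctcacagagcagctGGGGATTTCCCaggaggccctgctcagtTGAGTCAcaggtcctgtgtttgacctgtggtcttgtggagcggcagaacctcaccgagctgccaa
Tnfrsf1b (chr4:145246821-145247120, minus strand): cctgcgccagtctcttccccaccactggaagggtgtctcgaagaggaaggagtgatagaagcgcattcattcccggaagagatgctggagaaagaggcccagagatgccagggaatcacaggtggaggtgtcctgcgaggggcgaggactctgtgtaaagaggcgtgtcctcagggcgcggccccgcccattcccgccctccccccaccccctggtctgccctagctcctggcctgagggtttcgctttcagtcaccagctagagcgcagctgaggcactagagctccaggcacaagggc
Tnfrsf8 (chr4:145315115-145315414, minus strand): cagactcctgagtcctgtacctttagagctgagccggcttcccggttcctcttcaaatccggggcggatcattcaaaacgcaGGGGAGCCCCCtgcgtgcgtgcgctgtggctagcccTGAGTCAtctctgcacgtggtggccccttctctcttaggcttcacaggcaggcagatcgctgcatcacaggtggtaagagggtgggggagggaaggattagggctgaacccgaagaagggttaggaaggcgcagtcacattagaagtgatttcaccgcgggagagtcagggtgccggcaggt
Fas (chr19:34290409-34290708, plus strand): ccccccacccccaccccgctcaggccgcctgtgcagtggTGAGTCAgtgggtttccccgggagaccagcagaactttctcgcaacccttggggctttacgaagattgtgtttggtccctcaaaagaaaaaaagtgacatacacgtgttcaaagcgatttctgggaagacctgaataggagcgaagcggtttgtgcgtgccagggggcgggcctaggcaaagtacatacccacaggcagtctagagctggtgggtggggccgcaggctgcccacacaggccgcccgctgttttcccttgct
The AP-1 letters TGAGTCA began 15 bases before the second Tnfrsf9 start, 132 bases before the Tnfrsf8 start and 211 bases before the Fas start. Of all 32851 windows, 7.81% held an AP-1 match. The NF-kB letters, found in 1.11% of all windows, and the forkhead letters, found in 3.65%, were in 0 of the 11 windows. The kappaB consensus, found in 8.46% of all windows, was in 3 of the 11. It began 43 bases before the second Tnfrsf9 start and 168 bases before the Tnfrsf8 start, and it was also in the second Tnfrsf25 window. A match describes the letters and is not evidence of a bound site.

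The first question was how rTreg and aTreg cells of each genotype differ. Of the 10 receptors, 4 rose in aTreg cells of both genotypes, all of them TRAF-binding members: Tnfrsf8, Tnfrsf1b, Tnfrsf9 and Tnfrsf4. Over all genes tested, 9.50% rose in WT and 11.3% in Foxp1-deficient cells (adjusted p under 0.05 and at least 2-fold). The other direction was called for 0 of the 10, against 2.83% and 4.39% of all genes, by edgeR, DESeq2 and limma-voom alike. Without the fold threshold, 7 of the 10 differed in WT and 8 in Foxp1-deficient cells, against 4631 and 5828 of the 14540 genes tested. Of those receptors 2 were lower in aTreg cells in each genotype, and the others were higher. In bulk RNA, fewer cells that express a gene and less RNA per cell cannot be told apart.

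Tnfrsf8 encodes CD30, a receptor of activated lymphocytes. It was near the floor in rTreg cells, with 10 and 2 counts in WT and 3 and 12 counts in Foxp1-deficient libraries, which is 0.921, 0.157, 0.478 and 0.867 CPM. In aTreg cells it had 437 and 428 counts (47.9 and 27.4 CPM) in WT and 622 and 420 counts (52.1 and 30.2 CPM) in Foxp1-deficient libraries. The groups did not overlap. The log2 fold change was 6.16 in WT cells (95% interval 5.43 to 6.88, adjusted p = 1.42e-05) and 5.62 in Foxp1-deficient cells (4.92 to 6.33, adjusted p = 1.12e-05). Since the rTreg libraries held so few reads, the size of this fold is imprecise, and over the alternative fits it ranged from 5.66 to 7.40 and from 5.10 to 6.78.

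Tnfrsf1b encodes TNFR2, the TNF receptor without a death domain. Its level was 138 and 112 CPM in WT rTreg, 159 and 132 CPM in Foxp1-deficient rTreg, 670 and 463 CPM in WT aTreg and 654 and 676 CPM in Foxp1-deficient aTreg libraries. Every aTreg library lay above every rTreg library. The rise was 4.50-fold in WT cells (log2 2.17, SE 0.122, adjusted p = 1.97e-05) and 4.61-fold in Foxp1-deficient cells (log2 2.20, SE 0.123, adjusted p = 1.25e-05).

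Tnfrsf9 encodes 4-1BB (CD137), which T cells display after antigen receptor signaling. It was at 61.0 and 43.9 CPM in WT rTreg, 34.6 and 37.6 CPM in Foxp1-deficient rTreg, 227 and 118 CPM in WT aTreg and 162 and 126 CPM in Foxp1-deficient aTreg libraries. The lowest aTreg library exceeded the highest rTreg library. The increase was 3.20-fold in WT (log2 1.68, SE 0.197, adjusted p = 0.000578) and 3.83-fold in Foxp1-deficient cells (log2 1.94, SE 0.204, adjusted p = 0.000243).

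Tnfrsf4 encodes OX40. It was at 120 and 96.2 CPM in WT rTreg, 125 and 105 CPM in Foxp1-deficient rTreg, 306 and 176 CPM in WT aTreg and 300 and 237 CPM in Foxp1-deficient aTreg libraries. The groups were again separate, but the WT aTreg libraries differed from each other by 1.74-fold. The rise was 2.18-fold in WT (log2 1.12, SE 0.126, adjusted p = 0.000480) and 2.32-fold in Foxp1-deficient cells (log2 1.21, SE 0.127, adjusted p = 0.000235). Without WT aTreg replicate 1 the WT value was 0.86 (log2), under the 2-fold threshold, with an adjusted p of 0.000459.

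The remaining TRAF-binding members differed less. Tnfrsf18, which encodes GITR, was at 41.0 to 47.0 CPM in the 4 rTreg libraries, 72.7 and 52.2 CPM in WT aTreg and 74.6 and 64.5 CPM in Foxp1-deficient aTreg libraries. All aTreg libraries were higher, yet the differences of 1.40-fold (log2 0.49, adjusted p = 0.00466) and 1.56-fold (log2 0.64, adjusted p = 0.000986) stayed under 2-fold. Cd27, which encodes the receptor of CD70, was at 276 and 307 CPM in WT rTreg, 219 and 249 CPM in Foxp1-deficient rTreg, 311 and 305 CPM in WT aTreg and 229 and 270 CPM in Foxp1-deficient aTreg libraries, with subsets that overlapped in each genotype. Its log2 differences were 0.082 (95% interval -0.087 to 0.25) in WT and 0.093 (-0.077 to 0.26) in Foxp1-deficient cells, intervals that leave out a change of 2-fold.

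The death domain members lay on the other side of 0 in all 6 values, below the 2-fold threshold in each. Fas, the CD95 death receptor, was at 41.8 and 48.2 CPM in WT rTreg, 37.8 and 45.7 CPM in Foxp1-deficient rTreg, 34.3 and 33.5 CPM in WT aTreg and 22.6 and 30.8 CPM in Foxp1-deficient aTreg libraries. All aTreg libraries were below all rTreg libraries, by -0.41 (log2, adjusted p = 0.0277) in WT and -0.65 (adjusted p = 0.00329) in Foxp1-deficient cells. Tnfrsf1a, which encodes TNFR1, the death domain receptor for TNF, was at 54.0 and 45.3 CPM in WT rTreg and 40.8 and 45.0 CPM in WT aTreg libraries (-0.20, adjusted p = 0.211). In Foxp1-deficient cells it was at 44.5 and 44.6 CPM in rTreg and 31.4 and 26.3 CPM in aTreg libraries (-0.64, adjusted p = 0.00333). Tnfrsf25, which encodes DR3, was at 172 CPM in both WT rTreg and at 138 and 137 CPM in the WT aTreg libraries (-0.32, adjusted p = 0.0299). The Foxp1-deficient libraries of Tnfrsf25 overlapped, with 151 and 141 CPM in rTreg and 128 and 156 CPM in aTreg cells (-0.042, adjusted p = 0.749).

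Tnfrsf26, a decoy-type receptor without a death domain, was at 37.2 and 27.7 CPM in WT rTreg, 35.9 and 40.3 CPM in Foxp1-deficient rTreg, 44.4 and 33.1 CPM in WT aTreg and 52.1 and 54.9 CPM in Foxp1-deficient aTreg libraries. The WT groups overlapped (log2 0.25, adjusted p = 0.271), and the Foxp1-deficient groups did not (0.47, adjusted p = 0.0424). Its near copies Tnfrsf22 and Tnfrsf23 could share reads with it, so its counts are less certain. In each genotype 8 of the 10 receptors had aTreg and rTreg libraries that did not overlap, against 56.9% (WT) and 61.7% (Foxp1-deficient) of all genes.

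**Figure D1:**
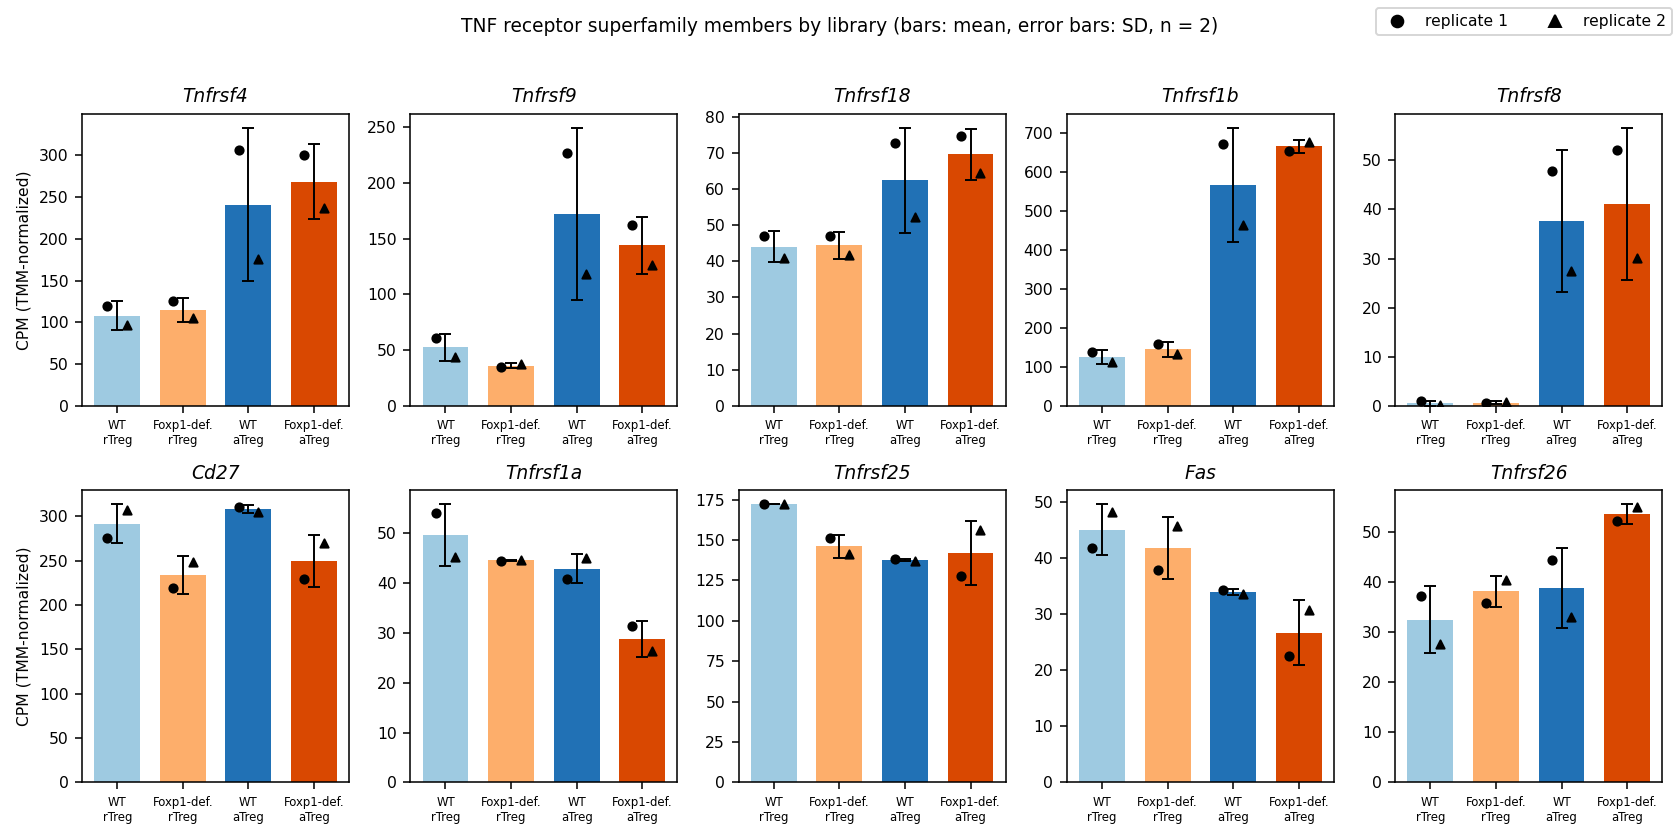
TMM-normalized CPM of each receptor in the 8 libraries (vertical axes, each from 0) by group (horizontal axes), with bars at the mean, error bars of 1 SD (n = 2), circles for replicate 1 and triangles for replicate 2. Tnfrsf8 stands near 0 in both rTreg groups, Tnfrsf1b reaches 463 to 676 CPM in aTreg libraries, and Cd27 stays between 219 and 311 CPM throughout.

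**Figure D2:**
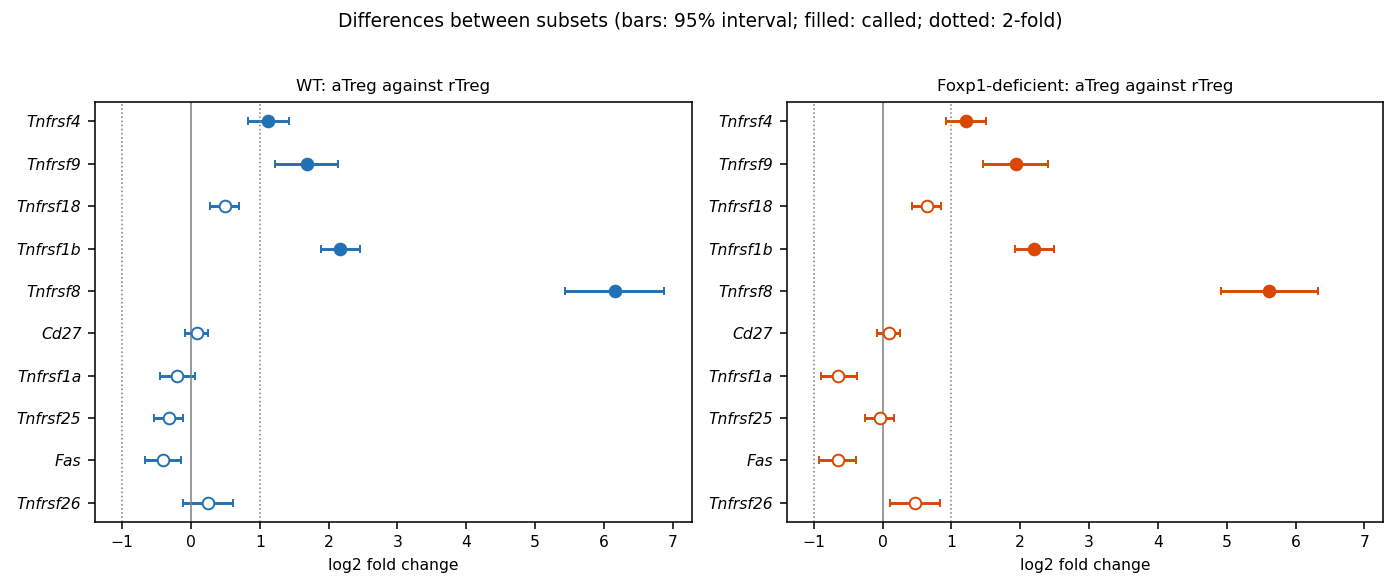
Log2 fold change of aTreg against rTreg cells (horizontal axis) for each receptor in WT (left) and Foxp1-deficient cells (right), with 95% intervals. Filled points, Tnfrsf4, Tnfrsf9, Tnfrsf1b and Tnfrsf8 in both panels, pass adjusted p under 0.05 and 2-fold (dotted lines).

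Markers of other cell types also differed between the subsets. The summed level of 7 B cell markers was 8.29 to 10.2 CPM in rTreg and 19.1 to 21.6 CPM in aTreg libraries. Cd79b made up most of that difference, with means of 4.84 (WT) and 4.90 CPM (Foxp1-deficient) in rTreg and 15.8 and 16.0 CPM in aTreg cells, while Cd79a was at 3.48 and 4.24 CPM and then at 2.67 CPM in both. The summed level of 4 dendritic cell markers was 0.553 to 1.75 CPM and 4.36 to 9.49 CPM. For 8 myeloid markers it was 0.786 to 1.93 CPM in WT rTreg, 6.07 to 15.0 CPM in Foxp1-deficient rTreg, 3.59 to 3.84 CPM in WT aTreg and 4.24 to 22.3 CPM in Foxp1-deficient aTreg libraries. Of these, 2 of the 7 B cell markers, Ebf1 among them, and Flt3 and Siglech of the dendritic cell list had at most 3 counts in every library. Their part in the receptor differences was not tested.

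On a scale per kilobase (FPKM), receptors can be set against each other. In WT rTreg cells Cd27 was the highest of the 10, at 124 ± 6.36 FPKM (SD, n = 2), followed by Tnfrsf4 (78.5 ± 13.9) and Tnfrsf25 (74.7, range 73.4 to 75.9), which did not differ beyond their spread. Tnfrsf1b (32.4 ± 5.41) and Tnfrsf18 (28.6 ± 3.42) overlapped and came next, above Fas (24.7), Tnfrsf9 (19.1), Tnfrsf1a (19.0), Tnfrsf26 (range 8.39 to 11.6) and Tnfrsf8 (0.156). Tnfrsf9 and Tnfrsf1a also overlapped. The FPKM of Fas rests on a length of 1801 bases, against 2062 merged exon bases in GENCODE M21, so its place in the order is less certain. The order in Foxp1-deficient rTreg cells differed only in that Tnfrsf1a (16.7) stood above Tnfrsf9 (12.9).

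In WT aTreg cells Tnfrsf4 (181 ± 70.3 FPKM), Tnfrsf1b (152 ± 40.1) and Cd27 (136 ± 2.63) led, with overlapping neighbours. Tnfrsf9 (65.0 ± 29.4) reached the level of Tnfrsf25 (61.8). In Foxp1-deficient aTreg cells Tnfrsf4 (199 ± 39.0) and Tnfrsf1b (175 ± 1.57) overlapped, and both lay above Cd27 (108 ± 9.10). Tnfrsf1a was the lowest of the 10 there, at 11.2 ± 1.75 FPKM, though its range overlapped that of Tnfrsf8 (12.1 ± 4.90). Summed over the 6 TRAF-binding members, the level was 251 to 298 FPKM in rTreg and 476 to 698 FPKM in aTreg libraries. Summed over the 3 death domain members, it was 101 to 120 FPKM and 83.3 to 98.1 FPKM. The ratio of the first sum to the second was 2.30 to 2.59 in rTreg libraries and 4.85 to 7.58 in aTreg libraries.

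**Figure D3:**
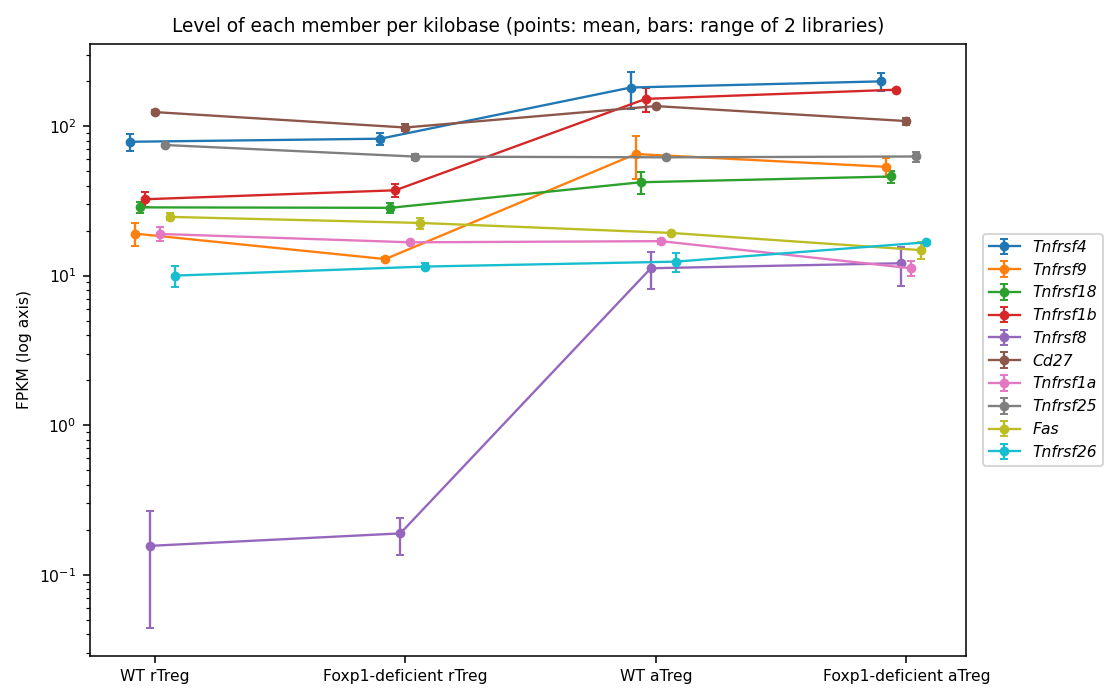
Mean FPKM of each receptor (vertical log axis) in the 4 groups (horizontal axis), with bars for the range of the 2 libraries and lines joining the same gene. Cd27 leads both rTreg groups, at 124 and 97.8 FPKM, and Tnfrsf4 leads both aTreg groups, at 181 and 199 FPKM.

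Replicates differed in a recurring way for the costimulatory receptors. Tnfrsf4 and Tnfrsf18 were higher in replicate 1 than in replicate 2 in 4 of 4 groups, by 1.19- to 1.74-fold and 1.12- to 1.39-fold. Tnfrsf9, Tnfrsf1b and Tnfrsf8 were higher in replicate 1 in 3 of 4 groups, while Cd27 and Fas were so in 1 of 4. For Tnfrsf9 the WT aTreg libraries differed by 1.93-fold. Whether sex or another difference between the replicates goes with these values was not tested.

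The second question was how the receptors differed between genotypes within each subset. In rTreg cells 0 of the 10 were called by edgeR, DESeq2 or limma-voom, against 2.90% of all genes called higher and 2.70% called lower (adjusted p under 0.05 and at least 1.5-fold). At an unadjusted p under 0.05 there were 2 of the 10, Cd27 and Tnfrsf25, against 4148 of the 14540 genes tested. Cd27 was at 219 and 249 CPM in Foxp1-deficient against 276 and 307 CPM in WT libraries, a difference of -0.32 (log2, SE 0.0732, adjusted p = 0.0319) that stayed under the fold threshold at 1.25-fold. Tnfrsf25 differed by -0.23 (adjusted p = 0.142). Tnfrsf9 had the largest difference among receptors well above the floor, -0.47 (95% interval -0.96 to 0.0094, adjusted p = 0.184). The others lay between -0.15 for Tnfrsf1a and 0.26 for Tnfrsf26, apart from Tnfrsf8, whose value of 0.66 had an interval from -0.76 to 2.09. Libraries of the 2 genotypes did not overlap for 4 of the 10, against 45.2% of all genes.

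In aTreg cells 1 of the 10 was called, Tnfrsf1a, which was lower in Foxp1-deficient cells. Of all genes 2.37% were called higher and 1.66% lower. The 31.4 and 26.3 CPM of Tnfrsf1a in Foxp1-deficient aTreg libraries lay below the 40.8 and 45.0 CPM in WT libraries, a log2 fold change of -0.59 (SE 0.112, adjusted p = 0.0247). The change sat at the 1.5-fold threshold itself. The value was negative under all 14 alternatives, from -0.73 to -0.42, but the call held in 6 of them. Without the replicate block the adjusted p was 0.135. Leaving out any 1 of 5 libraries, both Foxp1-deficient rTreg libraries, WT aTreg replicate 2 or either Foxp1-deficient aTreg library, also ended the call, with adjusted p from 0.0551 to 0.225. DESeq2 and the fit with no filter on low counts gave -0.58 and adjusted p of 0.00853 and 0.000587, short of the fold threshold.

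Cd27 differed in aTreg cells by nearly the same amount as in rTreg cells, with 229 and 270 CPM in Foxp1-deficient against 311 and 305 CPM in WT libraries (log2 -0.31, SE 0.0728, adjusted p = 0.0482, 1.24-fold). It was under the fold threshold in both subsets, and its adjusted p was under 0.05 in 9 of 14 alternatives for rTreg cells (0.00125 to 0.220) and in 5 of 14 for aTreg cells (0.00595 to 0.337). Without the replicate block it was 0.220 and 0.337. Cd27 was lower in all 4 pairs of libraries with the same replicate number. Fas (-0.35, adjusted p = 0.120) and Tnfrsf26 (0.49, adjusted p = 0.104) had libraries that did not overlap but did not pass the test. The other TRAF-binding members had small differences, -0.21 for Tnfrsf9, 0.13 for Tnfrsf8, 0.17 for Tnfrsf18, 0.19 for Tnfrsf4 and 0.26 for Tnfrsf1b, with adjusted p between 0.234 and 0.723. Their 95% intervals left out a change of 1.5-fold, except that of Tnfrsf9 (-0.65 to 0.22). Libraries did not overlap for 4 of the 10, against 41.8% of all genes. The sign of the genotype difference was the same in both subsets for 9 of the 10. The share of all genes with the same sign was not computed. Signs of Tnfrsf4, Tnfrsf8, Tnfrsf9 and Tnfrsf18 turned when a library was left out, so no result is drawn from this count.

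An interaction term tested whether the genotype difference was unlike in the 2 subsets. It was called for 0 of the 10 by edgeR, DESeq2 and limma-voom, against 0.330% of all genes (adjusted p under 0.05). Only Tnfrsf1a had an unadjusted p under 0.05 (log2 -0.44, 95% interval -0.81 to -0.072, adjusted p = 0.295). Of the 14540 genes tested, 1862 had such a p. For the 4 receptors that rose in aTreg cells the interaction was 0.088 (-0.32 to 0.50) for Tnfrsf4, 0.26 (-0.39 to 0.91) for Tnfrsf9, 0.033 (-0.35 to 0.42) for Tnfrsf1b and -0.53 (-2.01 to 0.95) for Tnfrsf8. These intervals leave out a difference of 2-fold between the genotypes for each of them but Tnfrsf8.

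**Figure D4:**
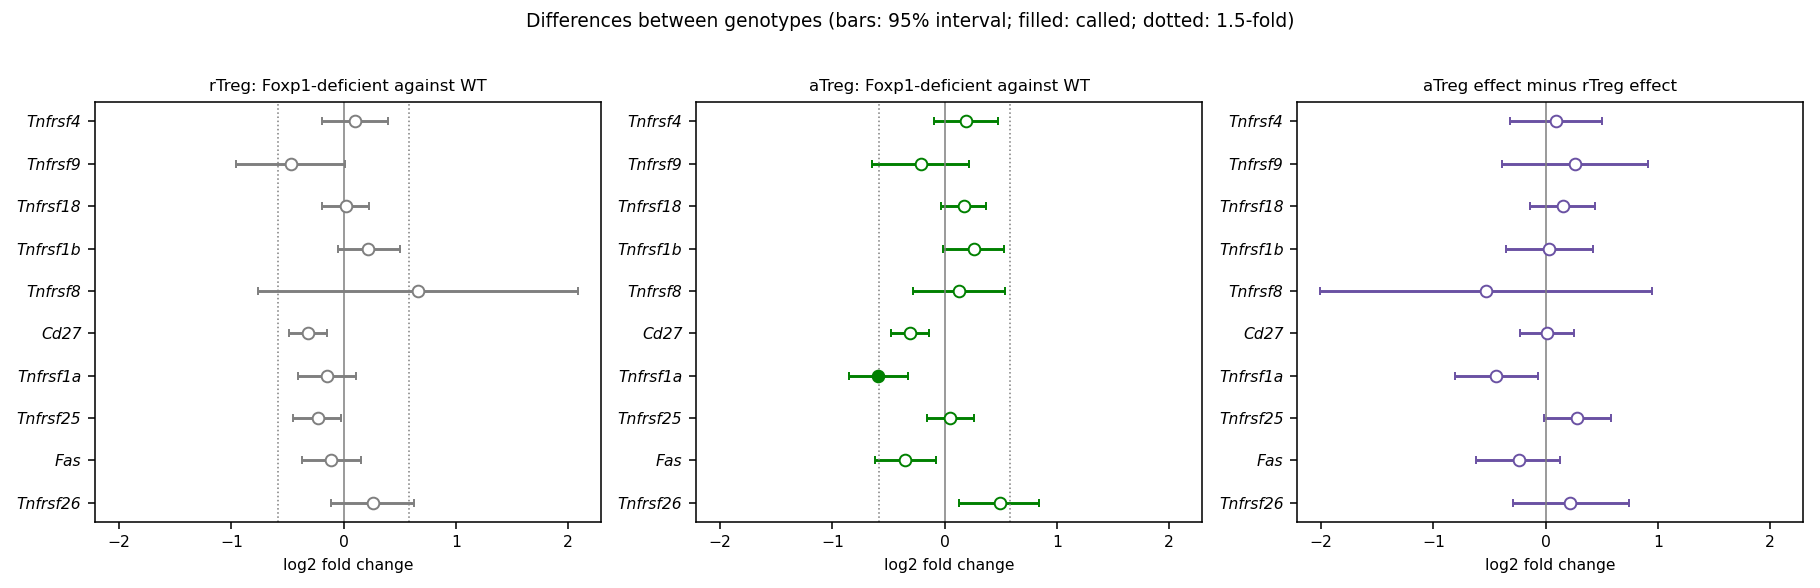
Log2 fold change of Foxp1-deficient against WT rTreg cells (left), the same for aTreg cells (middle) and the difference between both (right) for each receptor, with 95% intervals on the horizontal axis. The single filled point, Tnfrsf1a at -0.59 in aTreg cells, lies on the dotted line that marks 1.5-fold, and Tnfrsf8 has the widest interval in rTreg cells.

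The genes around the receptors were grouped into 4 lists. Of 18 further receptor genes of the family, 16 were in the table and 9 were tested. Of the 9, 2 rose in aTreg cells of each genotype, against 9.50% (WT) and 11.3% (Foxp1-deficient) of all genes. Between genotypes 1 was called, lower in Foxp1-deficient rTreg cells, against 2.70% of all genes. Tnfrsf23, a decoy-type gene next to Tnfrsf26, rose in aTreg cells by 1.22 (log2, WT, adjusted p = 0.0395) and 1.87 (Foxp1-deficient, adjusted p = 0.00365), from 10 to 17 counts in rTreg to 16 to 79 counts in aTreg libraries. The WT call held in only 6 of 14 alternatives, with adjusted p of 0.0799 without the replicate block and up to 0.281 otherwise, and the Foxp1-deficient call in 13, lost without Foxp1-deficient rTreg replicate 2. Cd40, a receptor of B cells and dendritic cells, was called higher too, but rested on 0 to 4 counts in rTreg and 9 to 20 counts in aTreg libraries, so that no fold is given, and its call in Foxp1-deficient cells was lost in 4 of 14 alternatives. Markers of those cell types were higher in the same libraries, as given above, and their part in this difference was not tested. Between genotypes, Tnfrsf10b, the mouse death receptor for TRAIL, was lower in Foxp1-deficient rTreg cells, with 7.17 and 5.85 CPM against 11.3 and 12.6 CPM in WT libraries (log2 -0.91, SE 0.169, adjusted p = 0.0155). The call held in 10 of 14 alternatives. It was lost without the replicate block (adjusted p = 0.0547) and without either WT rTreg library or Foxp1-deficient rTreg replicate 2, with adjusted p up to 0.170. In aTreg cells its difference was -0.43 (adjusted p = 0.144).

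Of 18 ligand genes of the TNF superfamily, 12 were tested. In WT aTreg cells 4 rose, and the same 4 and Tnfsf10 did so in Foxp1-deficient aTreg cells, against 9.50% (WT) and 11.3% (Foxp1-deficient) of all genes. Between genotypes 1 of the 12 was called, higher in Foxp1-deficient rTreg cells, against 2.90% of all genes. Tnfsf11, which encodes RANKL, went from 10.2 to 17.9 CPM in rTreg to between 88.5 and 113 CPM in aTreg libraries, a rise of 2.94 (log2, adjusted p = 6.04e-06) in WT and 2.63 (adjusted p = 5.04e-06) in Foxp1-deficient cells. Tnfsf14, which encodes LIGHT, went from 1.93 to 2.74 CPM to between 30.3 and 38.8 CPM (4.14, adjusted p = 8.09e-06, and 3.63, adjusted p = 8.24e-06). Tnfsf13b, which encodes BAFF, had 3 to 6 counts in rTreg and 55 to 93 counts in aTreg libraries (3.62 and 3.63, adjusted p = 0.00165 and 0.00115). Tnfsf15, which encodes TL1A, the ligand of Tnfrsf25, had 0 counts in all 4 rTreg libraries and 10, 18, 23 and 44 counts in the aTreg libraries. Tnfsf10, which encodes TRAIL, rose by 1.63 (adjusted p = 3.59e-06) in Foxp1-deficient cells and by 0.93 (adjusted p = 4.53e-05), under 2-fold, in WT cells. Between genotypes, Lta, which encodes lymphotoxin alpha, was higher in Foxp1-deficient rTreg cells, with 75.5 and 88.0 CPM against 49.5 and 48.2 CPM (log2 0.76, SE 0.114, adjusted p = 0.00745). That call held in 11 of 14 alternatives and was lost without either WT rTreg library or Foxp1-deficient rTreg replicate 2 (adjusted p up to 0.0732).

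The last lists hold genes that act downstream of the receptors. Of 12 TRAF adaptors and genes of the noncanonical NF-kB module, all tested, 0 were called by edgeR in each comparison, with medians between -0.0680 and 0.176 (log2). Of all genes 12.3% (WT) and 15.7% (Foxp1-deficient) were called between subsets, and 5.60% (rTreg) and 4.03% (aTreg) between genotypes. Beneath these medians, Traf4, Traf6, Birc3, Map3k14 and Traf3ip3 were lower in aTreg cells of both genotypes, and Traf2 and Traf5 were higher. Each had an adjusted p under 0.05 and stayed under 2-fold, and they were named after their values were seen. By adjusted p alone, 4631 (WT) and 5828 (Foxp1-deficient) of the 14540 genes tested differed between the subsets. Of 16 genes of death domain signaling, all tested, 2 rose in WT and 3 in Foxp1-deficient aTreg cells, against 9.50% and 11.3% of all genes. Mlkl, the effector of necroptosis, rose by 1.75 (log2, adjusted p = 0.0201) in WT and 2.34 (adjusted p = 0.00324) in Foxp1-deficient cells, from 6 to 13 counts in rTreg libraries. Its WT call was lost without the replicate block (adjusted p = 0.0771) and without WT rTreg replicate 2 or either WT aTreg library (up to 0.139), and its Foxp1-deficient call without Foxp1-deficient rTreg replicate 2 (0.0554). Bid, which links death receptors to mitochondria, rose by 1.34 (adjusted p = 0.000309) in Foxp1-deficient cells, and its value in WT cells was 0.54 (adjusted p = 0.0238). In all, 13 genes of this list were not called in any of the comparisons. The median over the list was -0.0212 in WT and -0.0313 in Foxp1-deficient cells, against -0.0046 and -0.018 over all genes.

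**Figure D5:**
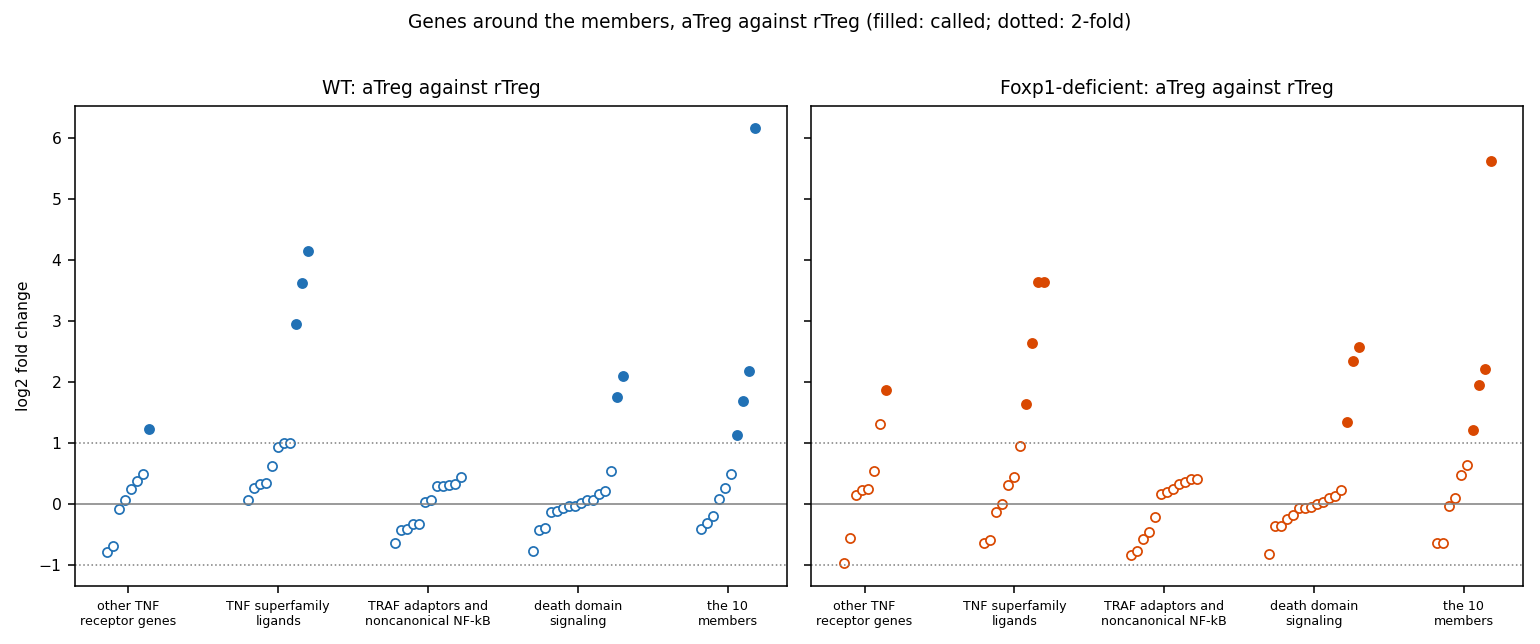
Log2 fold change of aTreg against rTreg cells (vertical axis) for the tested genes of 4 lists and the 10 receptors (horizontal axis), in WT (left) and Foxp1-deficient cells (right). Filled points pass adjusted p under 0.05 and 2-fold (dotted lines). Tnfsf15 and Cd40 are left out because their rTreg libraries held 0 to 4 counts. Among the points shown, Tnfrsf8 is the highest in each panel, at 6.16 and 5.62, with 2 to 12 counts in rTreg libraries. The fitted values of Tnfsf15, 6.74 and 7.99, were higher.

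The genes with the pattern most like each receptor were found by Pearson's r of log2 CPM over the 8 libraries, among 8968 genes with a mean of at least 10 CPM. The libraries fall into 2 subsets and share their replicate numbers, so no p is given. For receptors that differ between the subsets, r follows that difference. For Tnfrsf4 they were Adamts6 (0.996) and Tnfrsf18 (0.993), and for Tnfrsf18 they were Adamts6 (0.994) and Tnfrsf4 (0.993), its neighbour on chromosome 4. For Tnfrsf9 they were Egr3 (0.994), a transcription factor gene induced by antigen receptor signaling, and Twsg1 (0.989). For Tnfrsf8 they were Susd6 (0.995) and Tnfsf11 (0.993), and for Tnfrsf1b Zfp862-ps and Cobll1 (0.995 each). Tnfrsf1a was most like Tfrc (0.971) and Ccr7 (0.970), a homing receptor gene of resting T cells, and Fas was most like Ppia (0.974) and Thoc1 (0.966). Cd27 was most like Camkk1 (0.981) and Zfp930 (0.972), Tnfrsf25 was most like Ncln and Ndrg1 (0.932 each), and Tnfrsf26 was most like Ypel5 (0.992) and Sirt2 (0.982).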

How the data were processed

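Read counts per Ensembl gene were used as the authors deposited them. Per the study's methods and the submitters' processing notes, reads were checked with FastQC, trimmed with trim_galore, aligned to mm10 with HISAT2 2.0.5, cleared of duplicates with Picard and counted with htseq-count. The deposited FPKM values equal count over library total and gene length, with a relative spread of at most 0.000538, and set the order of levels between genes.

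Tests on the counts used edgeR 4.0.16 under R 4.3.3 (glmQLFit, glmQLFTest, TMM), with all 8 libraries in 1 fit of group means and replicate number. The filter filterByExpr (minimum count 10) left out 13054 genes. P-values were adjusted by Benjamini-Hochberg over the 14540 genes tested. Calls needed an adjusted p under 0.05 with a genotype difference of 1.5-fold or a subset difference of 2-fold, after the study's methods. The 2-fold threshold was carried over to the Foxp1-deficient subsets, and the interaction had no fold threshold. Intervals are the log2 fold change with the t quantile of the fit times its SE.

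The study's methods state a paired analysis against batch effects, which the replicate numbers of the labels can carry. Deviations of libraries with the same number correlated at 0.355 to 0.597 across genes, over the 6 pairs of groups. Alternatives were DESeq2 1.42.0, limma-voom (limma 3.58.1), no replicate block, other scalings, no filter, no fold threshold and leaving out each library. Positions are from GENCODE M21. The median log2 fold change of all genes moved by less than 0.1 between scalings.

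All 10 receptors are named in every comparison, and of the lists around them the called genes, at most 4 a direction. The receptors and lists were chosen with earlier results of these data known. Of the further receptor genes, Tnfrsf17 and Edar were not analysed here. Results for a few further genes are not reported here. The fit was checked on simulated data.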

Additional observations from a re-analysis of the deposited data

Results flagged for a closer look

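The genotype effect on Tnfsf10, which encodes TRAIL, differed between the subsets by the interaction test (log2 0.70, SE 0.0895, adjusted p = 0.0304). Tnfsf10 was at 49.8 and 51.3 CPM in WT and 43.7 and 46.1 CPM in Foxp1-deficient rTreg libraries (-0.17, adjusted p = 0.139), and at 96.4 and 96.3 CPM in WT and 134 and 145 CPM in Foxp1-deficient aTreg libraries (0.53, adjusted p = 0.00374). Both pairs of libraries with the same replicate number gave an interaction in that direction, 0.66 and 0.75. The call held in 6 of 14 alternatives. It was lost without the replicate block (adjusted p = 0.248) and without any 1 library other than WT aTreg replicate 1.

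For Foxp1 itself the interaction was -0.92 (SE 0.134, adjusted p = 0.0477). The whole-gene count was lower by 2.05-fold in Foxp1-deficient aTreg cells and by 1.09-fold in rTreg cells, and both pairs again gave the same direction. This call held in 5 of 14 alternatives. It was lost without the replicate block (adjusted p = 0.288), with median-of-ratios size factors and without any 1 library other than Foxp1-deficient aTreg replicate 1.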

How the results depend on the processing

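The rise of Tnfrsf9, Tnfrsf1b and Tnfrsf8 in aTreg cells of both genotypes, and of Tnfrsf4 in Foxp1-deficient cells, held under all 14 alternatives, and that of Tnfrsf4 in WT cells under 13. The lower Tnfrsf1a in Foxp1-deficient aTreg cells did not: the count of receptors called lower was 0 without the replicate block, with DESeq2 and with no filter, 2 with no fold threshold and 0 to 1 when a library was left out. With no fold threshold 1 receptor was called lower between genotypes in rTreg cells, and 2 were lower in aTreg than in rTreg cells of each genotype. Counts over all genes moved more, and the cause was not tested. Without the replicate block, which changed no other receptor's call, 266 genes were called between genotypes in rTreg cells (814 with it) and 77 in aTreg cells (586 with it). Leaving out a library gave 172 to 850 and 110 to 516. No filter gave 1035 in aTreg cells. No fold threshold gave 1748 and 1001 between genotypes, and 4631 (WT) and 5828 (Foxp1-deficient) between subsets. The interaction was called for 48 genes with the block, and by edgeR without it for 0 (884 at an unadjusted p under 0.05). It was called for 43 by limma-voom, 279 by DESeq2, 104 with library totals, 573 with no filter and 1 to 157 with a library left out.

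Signs turned for some values that were not called. Tnfrsf18 between genotypes in rTreg cells was -0.0050 (log2) with library totals, -0.0015 with no filter and -0.060 to 0.065 with a library left out. Tnfrsf25 between Foxp1-deficient subsets was 0.0046 with library totals and -0.21 to 0.11 with a library left out. Leaving out a library also turned Tnfrsf4 (-0.034 to 0.20) and Tnfrsf8 (-0.48 to 1.88) between genotypes in rTreg cells, Tnfrsf4 (-0.049 to 0.45), Tnfrsf9 (-0.53 to 0.15) and Tnfrsf25 (-0.12 to 0.20) in aTreg cells, and Cd27 between WT subsets (-0.031 to 0.19). It turned the interactions of Tnfrsf4 (-0.15 to 0.35), Tnfrsf9 (-0.040 to 0.69), Tnfrsf1b (-0.18 to 0.23), Tnfrsf8 (-1.76 to 0.61) and Cd27 (-0.099 to 0.12). With 2 libraries a group, a fit with 1 left out assumes that the lone library varies like the others. Depth limits Tnfrsf8 in rTreg cells, at 2 to 12 counts.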

Other observations

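Of the ligand genes that were not tested, Cd70, which encodes the ligand of CD27, was chosen after its values were seen. It had 0 counts in all 4 rTreg libraries, 0 and 2 counts in WT aTreg and 3 and 3 counts in Foxp1-deficient aTreg libraries, at or under the floor of 3 counts throughout. Lta was higher in the libraries labelled Foxp1-deficient among rTreg cells, and in aTreg cells its genotype difference was -0.18 (log2, adjusted p = 0.388), and its interaction was -0.94 (adjusted p = 0.0585). Tnfrsf23 had a genotype difference of 1.03 in aTreg cells (adjusted p = 0.0862), with 4.11 and 5.68 CPM in Foxp1-deficient and 1.76 and 2.95 CPM in WT libraries.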
